A study of Mus musculus with 6 samples.

Results

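The genes described here are 10 products of neutrophils, the short-lived phagocytes of the blood: the calprotectin subunits S100a8 and S100a9, the granule proteins Ltf, Camp, Ngp, Lcn2 and Hp, and Chil3, Wfdc21 and Ifitm6. They were measured in regulatory T cells (Treg), which are CD4+ T cells that dampen immune responses, isolated as the CD4+CD25+ fraction with magnetic beads. The members were named with an earlier result of the same arrays in view, namely that several of them read higher in HDAC9-/- samples. The differences between genotypes are therefore descriptions and carry no test. Each of the 10 genes had 1 probe set annotated to it alone, so the members are 10 of 22626 probe sets and 10 of 12393 named genes. The 3 HDAC9-/- samples came from mice without the class IIa histone deacetylase HDAC9, the 3 wild type samples from mice that have it, and both genotypes are labelled as strain C57BL/6. The labels used here state neither the age and sex of the mice nor whether each sample was taken from a mouse of its own. Total RNA of each sample was hybridised to 1 array, so 3 arrays per genotype limit the precision.

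Neutrophils make their granule proteins in waves while they mature in the bone marrow, first those of azurophil granules, then those of specific granules, then those of gelatinase granules. Calprotectin is a complex of S100a8 and S100a9 that fills the neutrophil cytosol and binds calcium, zinc and manganese. Lactoferrin, the product of Ltf, withholds iron from bacteria, and lipocalin 2, the product of Lcn2, captures the iron carriers that bacteria secrete. These genes are not products typical of T cells, and a bead-isolated fraction can carry a few cells of other types. In a bulk sample, more cells of a type and more RNA per cell cannot be told apart.

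The promoters show what some of the members share in sequence. RefSeq windows from 250 bases before to 50 bases after the start of a gene (build GRCm38.p6) were found for 8 of the 10 genes. They were not found for Hp and Wfdc21. The letters TTNNGCAA, a core bound by factors of the C/EBP family, to which the granulocyte factor C/EBP-epsilon belongs, were searched on both strands. They occurred in 4 of the 8 windows, against 10.8% of the 32851 windows in the table. The 4 genes were S100a9, Ltf, Ngp and Lcn2, and the 250 bases before their starts are shown because they hold the matches, which are in capitals.
S100a9 (chr3:90695722-90695971, minus strand): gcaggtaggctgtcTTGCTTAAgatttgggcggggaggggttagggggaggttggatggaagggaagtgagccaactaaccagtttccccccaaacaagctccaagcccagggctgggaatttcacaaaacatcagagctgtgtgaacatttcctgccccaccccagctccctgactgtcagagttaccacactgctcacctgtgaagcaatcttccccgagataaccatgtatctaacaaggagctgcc
Ltf (chr9:111019042-111019291, plus strand): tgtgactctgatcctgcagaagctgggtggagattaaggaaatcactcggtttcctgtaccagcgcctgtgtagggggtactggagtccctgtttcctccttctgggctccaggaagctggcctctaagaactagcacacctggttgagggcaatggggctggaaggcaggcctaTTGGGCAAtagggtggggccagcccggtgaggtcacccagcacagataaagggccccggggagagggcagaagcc
Ngp (chr9:110419558-110419807, plus strand): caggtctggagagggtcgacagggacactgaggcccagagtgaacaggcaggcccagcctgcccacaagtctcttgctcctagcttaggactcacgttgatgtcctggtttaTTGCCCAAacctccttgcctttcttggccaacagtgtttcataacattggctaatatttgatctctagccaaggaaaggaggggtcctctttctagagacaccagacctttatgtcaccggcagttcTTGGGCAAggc
Lcn2 (chr2:32387740-32387989, minus strand): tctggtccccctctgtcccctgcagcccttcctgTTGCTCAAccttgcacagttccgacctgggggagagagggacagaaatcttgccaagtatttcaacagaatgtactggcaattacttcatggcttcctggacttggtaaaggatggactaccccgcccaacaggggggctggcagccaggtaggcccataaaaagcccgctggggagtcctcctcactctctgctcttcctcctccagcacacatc
Read on the strand of the match, Ltf and both matches of Ngp had the same letters, TTGGGCAA, while Lcn2 had TTGAGCAA and S100a9 had TTAAGCAA. The Ltf match lay 75 to 68 bases before the start, and the matches of Ngp lay 138 to 131 and 11 to 4 bases before it. The letters TATAAA (those of the TATA box) occurred in 4 of the 8 windows, S100a8, S100a9, Chil3 and Ifitm6, against 13.6% of all windows. They lay 30 to 25 bases before the start in S100a8 and 46 to 41 before it in Ifitm6. In Chil3 the match began 3 bases before the annotated start and ran across it, and in S100a9 it began at the start itself. The letters GAGGAAG, a core of PU.1 sites, occurred in 2 of the 8 windows, S100a8 and Lcn2, against 13.6% of all windows. The matches of the 3 motifs did not overlap one another. These matches describe letters and no measured binding. By gene order in the same assembly, S100a8 and S100a9 are next to each other on chromosome 3. Camp and Ngp lie on chromosome 9 with 8 protein-coding genes between them, and 20 lie between Ngp and Ltf.

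The arrays differed little as a whole. Array medians were 5.78 to 5.79 (log2) in HDAC9-/- and 5.69 to 5.81 in wild type samples, the lowest being that of wild type replicate 3, which also had the lowest mean correlation with the other arrays (0.991, against 0.994 to 0.996). Signal of the Gapdh controls at the 3-prime end minus that at the 5-prime end, which reflects RNA integrity, was 0.15 to 0.28 in HDAC9-/- and 0.03 to 0.11 in wild type samples. The same measure for the actin controls overlapped, at 0.42 to 0.60 in HDAC9-/- and 0.33 to 0.46 in wild type samples. Their part in the results below was not tested. The targeted gene, Hdac9, had 1 probe set, which was dim at 3.74, 3.62 and 3.66 in HDAC9-/- and 3.5, 3.74 and 4.10 in wild type replicates 1 to 3. The groups overlapped, and where its probes lie relative to the deletion is not known here, so the values do not check the labels. Of 12 T cell and Treg genes, 11 were above the array-wide median on all arrays, and the exception was Ikzf2, a factor of many Treg, at 4.89 to 5.29 in HDAC9-/- and 4.36 to 5.24 in wild type samples. Foxp3, the defining factor of Treg, read 10.33 to 10.44 in HDAC9-/- and 10.29 to 10.38 in wild type samples, and Cd3e read 11.76 to 11.85 in HDAC9-/- and 11.69 to 11.91 in wild type samples.

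All 10 members read higher on every HDAC9-/- array than on every wild type array. Their differences were 0.89 to 1.46 on the log2 scale, or 1.85-fold to 2.75-fold, with a median of 1.14, against a median of 0.008 over all probe sets. Groups that do not overlap in this direction were found for 11.0% of all probe sets, and since the members were chosen on this contrast nothing is read from their count. None of the 10 passed limma's moderated test across the array at an adjusted p of 0.05, a threshold that 0.0133% of all probe sets passed (3 of 22626). At an unadjusted p of 0.05 the count was 10 of 10 (5.55% of all probe sets in this direction), and nothing is read from it either, since these p-values belong to the contrast on which the members were chosen.

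**Figure D1:**
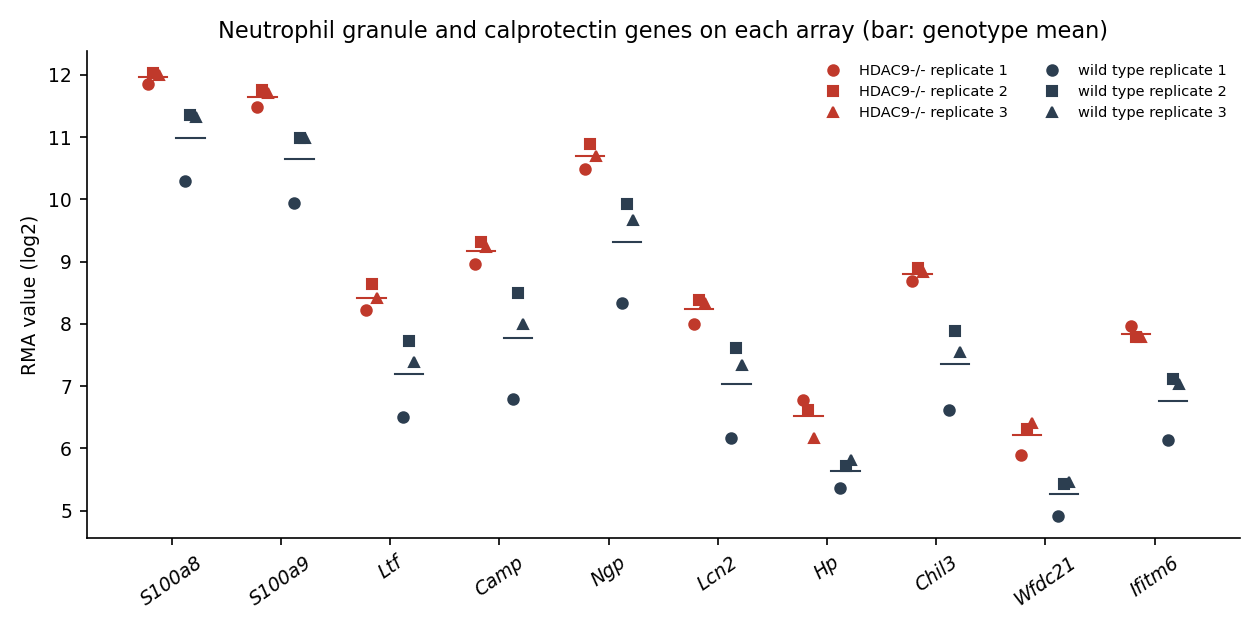
RMA values (log2 scale) of the 10 genes on each array, HDAC9-/- in red to the left and wild type in dark blue to the right, with the replicate number as the symbol and the genotype mean as a bar. For every gene the lowest point is wild type replicate 1, and the red points of a gene lie above its blue ones by 0.35 to 0.79 at the closest.

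The calprotectin subunits varied as a pair. S100a8 (1419394_s_at) read 11.85, 12.03 and 11.99 in HDAC9-/- and 10.30, 11.36 and 11.32 in wild type replicates 1 to 3. S100a9 (1448756_at) read 11.49, 11.75 and 11.70 in HDAC9-/- and 9.94, 10.99 and 10.98 in wild type replicates 1 to 3. In both genes the HDAC9-/- arrays lay close together and wild type replicate 1 lay far below the other wild type arrays. S100a8 averaged 11.96 ± 0.10 in HDAC9-/- and 10.99 ± 0.60 in wild type samples (SD, n = 3), a difference of 0.96, and S100a9 averaged 11.65 ± 0.14 and 10.64 ± 0.61, a difference of 1.01. The log2 gap between the pair of probe sets stayed between 0.28 and 0.37 on all 6 arrays, while each gene by itself ranged over 1.73 and 1.82. Without wild type replicate 1 the differences were 0.62 and 0.66.

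Of the 5 specific granule genes, Ltf, Camp, Ngp and Lcn2 showed larger differences than the calprotectin genes, again with wild type replicate 1 the lowest array. Ltf (1450009_at) read 8.22, 8.64 and 8.41 in HDAC9-/- and 6.50, 7.73 and 7.38 in wild type replicates 1 to 3, a difference of 1.22. Camp (1419691_at), which encodes the precursor of the antimicrobial cathelicidin peptide, read 8.96, 9.32 and 9.24 in HDAC9-/- and 6.80, 8.50 and 8.0 in wild type samples, a difference of 1.41. Ngp (1418722_at), which encodes a granule protein related to cystatins and cathelicidins, read 10.48, 10.89 and 10.69 in HDAC9-/- and 8.34, 9.93 and 9.66 in wild type samples, a difference of 1.38. In all 3 genes replicate 1 was the lowest and replicate 2 the highest array of each genotype. Lcn2 (1427747_a_at) had that order too, with 7.99, 8.39 and 8.34 in HDAC9-/- and 6.17, 7.61 and 7.34 in wild type replicates 1 to 3, a difference of 1.20. The wild type arrays of Camp alone spanned 1.70, or 3.25-fold, which is more than its difference between genotypes. Without wild type replicate 1 the difference was 0.87 for Ltf, 0.92 for Camp, 0.89 for Ngp and 0.77 for Lcn2.

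Hp, the other specific granule gene, had a smaller difference and followed another order of arrays. It encodes the haemoglobin-binding protein haptoglobin, a product of liver and of granulocytes. Its probe set (1448881_at) read 6.78, 6.62 and 6.17 in HDAC9-/- and 5.37, 5.72 and 5.81 in wild type replicates 1 to 3, so that HDAC9-/- replicate 3 was the lowest of its group and replicate 1 the highest. Its difference was 0.89 and its closest arrays were 0.35 apart, the narrowest gap of the 10 genes. The wild type mean of Hp, 5.63 ± 0.23 (SD, n = 3), was under the array-wide median of 5.76, where RMA compresses differences.

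Among the other neutrophil genes, Chil3 had the largest difference of the set. Chil3 (1419764_at), a chitinase-like protein of neutrophils and macrophages, read 8.68, 8.90 and 8.83 in HDAC9-/- and 6.61, 7.89 and 7.54 in wild type replicates 1 to 3, a difference of 1.46, or 1.09 without wild type replicate 1. A probe set annotated to both Chil3 and its close relative Chil4 read 7.71, 7.83 and 7.65 in HDAC9-/- and 6.24, 7.0 and 6.59 in wild type samples, and the signals of these genes cannot be told apart there. Ifitm6 (1440865_at), of the interferon-induced transmembrane family, read 7.97, 7.78 and 7.78 in HDAC9-/- and 6.13, 7.11 and 7.03 in wild type replicates 1 to 3, a difference of 1.09. Its HDAC9-/- arrays were level and wild type replicate 1 stood apart. Wfdc21 (1434484_at), a small protein with a whey acidic protein domain, read 5.90, 6.31 and 6.41 in HDAC9-/- and 4.91, 5.42 and 5.46 in wild type replicates 1 to 3, a difference of 0.94. All wild type values of Wfdc21 were under that array-wide median too.

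**Figure D2:**
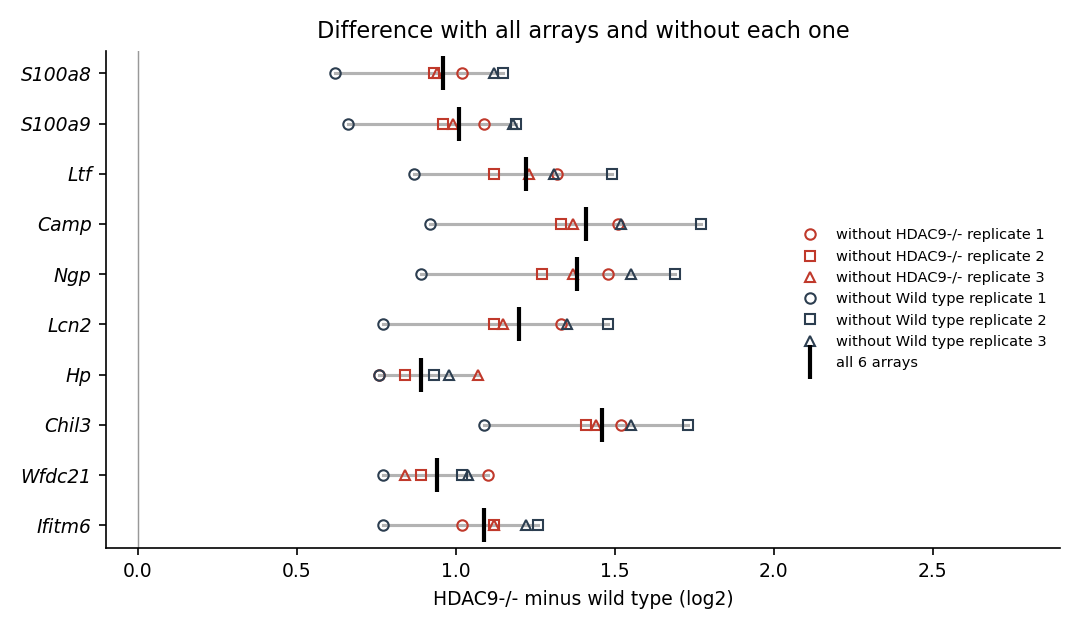
Difference HDAC9-/- minus wild type (log2) of each gene with all 6 arrays (black bar) and without each array in turn (open symbols, red for an HDAC9-/- and dark blue for a wild type array left out). All values lie to the right of 0, which is fixed in advance where groups do not overlap. The lowest of each gene is the one without wild type replicate 1, at 0.62 to 1.09. For Hp the value without HDAC9-/- replicate 1 rounds to the same 0.76.

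Within genotype, the members varied far more than most of the array. The SD of replicates within genotype (both genotypes pooled) had a median of 0.46 over the 10 genes, from 0.28 for Hp to 0.63 for Camp, against 0.12 over all probe sets. For 8 of the 10 genes it exceeded the 95th percentile of all probe sets (0.33), Hp and Wfdc21 being the exceptions. The spread was wider among wild type than among HDAC9-/- arrays in 9 of the 10 genes, again except Hp, and in 62.9% of all probe sets. The median range was 0.38 among HDAC9-/- and 1.15 among wild type arrays, against 0.18 and 0.23 over all probe sets. In 6 genes, S100a8, S100a9, Ltf, Camp, Ngp and Lcn2, the range among wild type arrays was wider than the difference between genotypes.

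**Figure D3:**
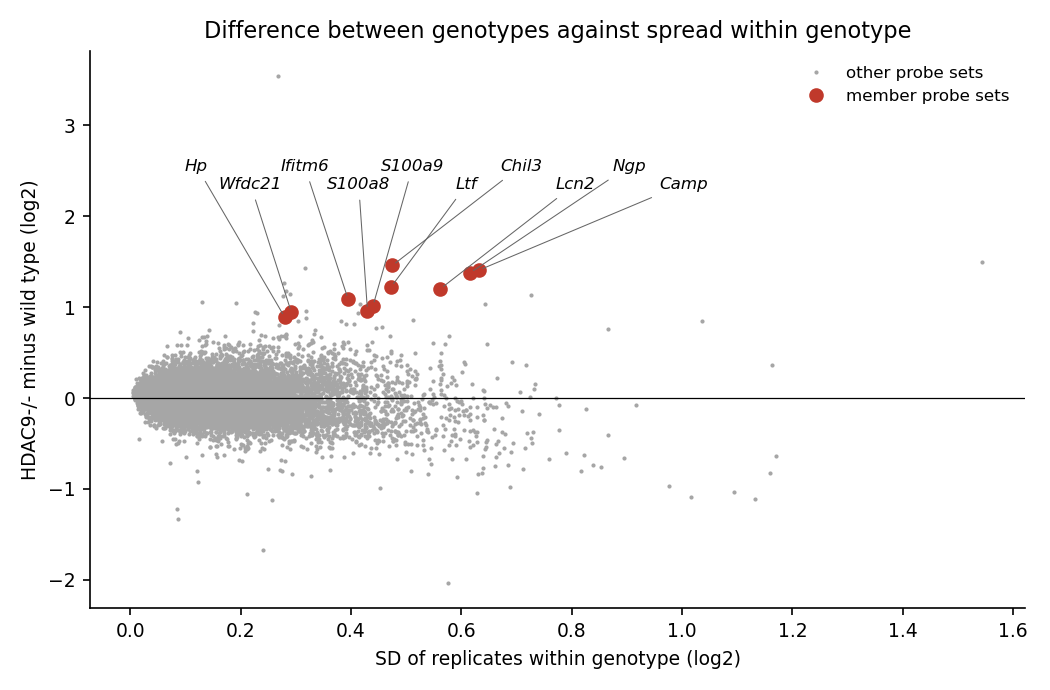
Difference HDAC9-/- minus wild type (log2) against the SD of replicates within genotype (log2) for all 22626 probe sets, members in red. The members lie at differences of 0.89 to 1.46 and at SDs of 0.28 to 0.63, to the right of most probe sets, whose median SD is 0.12.

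The genes varied together, since the same arrays were low or high in nearly all of them. Wild type replicate 1 was the lowest wild type array for 10 of the 10 genes, as for 25.4% of all probe sets, and wild type replicate 2 was the highest for 8, as for 31.5% of all. HDAC9-/- replicate 1 was the lowest HDAC9-/- array for 8 of the 10 genes, as for 30.0% of all, and HDAC9-/- replicate 2 the highest for 7, as for 29.0% of all. Averaged over the 10 genes, the deviation from the genotype mean was -0.12, 0.11 and 0.01 for replicates 1, 2 and 3 of HDAC9-/- and -0.69, 0.43 and 0.26 for those of wild type. The common variation was thus mainly that of the wild type arrays, and largely that of replicate 1. Over the 45 pairs of members, the log2 gap between their probe sets ranged over 0.10 to 1.65 across the 6 arrays, with a median of 0.64, while single members ranged over 1.41 to 2.55. The pairs with the steadiest gaps were S100a8 with S100a9 (0.10), Camp with Ngp (0.22) and Ltf with Lcn2 (0.29). The 21 pairs without Hp, Wfdc21 or Ifitm6 had a median of 0.49, and the 24 pairs that held one of these had 0.90, a grouping made after the values were seen.

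Markers of monocytes, macrophages and dendritic cells varied in another order of arrays. Of the 17 measured markers, 14 were lowest in HDAC9-/- replicate 3 and 14 highest in HDAC9-/- replicate 1 among the HDAC9-/- arrays, while none of the members except Hp was lowest in HDAC9-/- replicate 3. Lyz2, the lysozyme gene of macrophages and neutrophils, read 10.67, 10.66 and 9.24 in HDAC9-/- and 9.18, 9.92 and 10.36 in wild type replicates 1 to 3. Csf1r, the receptor for the macrophage growth factor, read 8.39, 8.28 and 7.01 in HDAC9-/- and 7.18, 7.62 and 7.40 in wild type samples. Lyz2 and Csf1r had the lowest deviations of the 17 markers in HDAC9-/- replicate 3, at -0.95 and -0.88. That replicate lay within the wild type range for Lyz2 and below every wild type array for Csf1r. S100a8, Ngp and Chil3 in that replicate lay between the other HDAC9-/- samples. The other Csf1r probe sets were also lower in HDAC9-/- replicate 3 than on any wild type array. For 4 of the 17 markers, though, every HDAC9-/- array lay above every wild type array, as for 11.0% of all probe sets. They were Flt3, Cd68, Cst3 and Itgax, with differences of 0.47, 0.46, 0.33 and 0.28. Wild type replicate 1 was the lowest wild type array for 13 of the 17 markers, as it was for the members. The mean deviation of the markers from their genotype mean was 0.21, 0.09 and -0.30 in HDAC9-/- and -0.21, 0.04 and 0.17 in wild type replicates 1 to 3. These orders are descriptions of 3 arrays per genotype, and the difference between the lists was not tested.

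**Figure D4:**
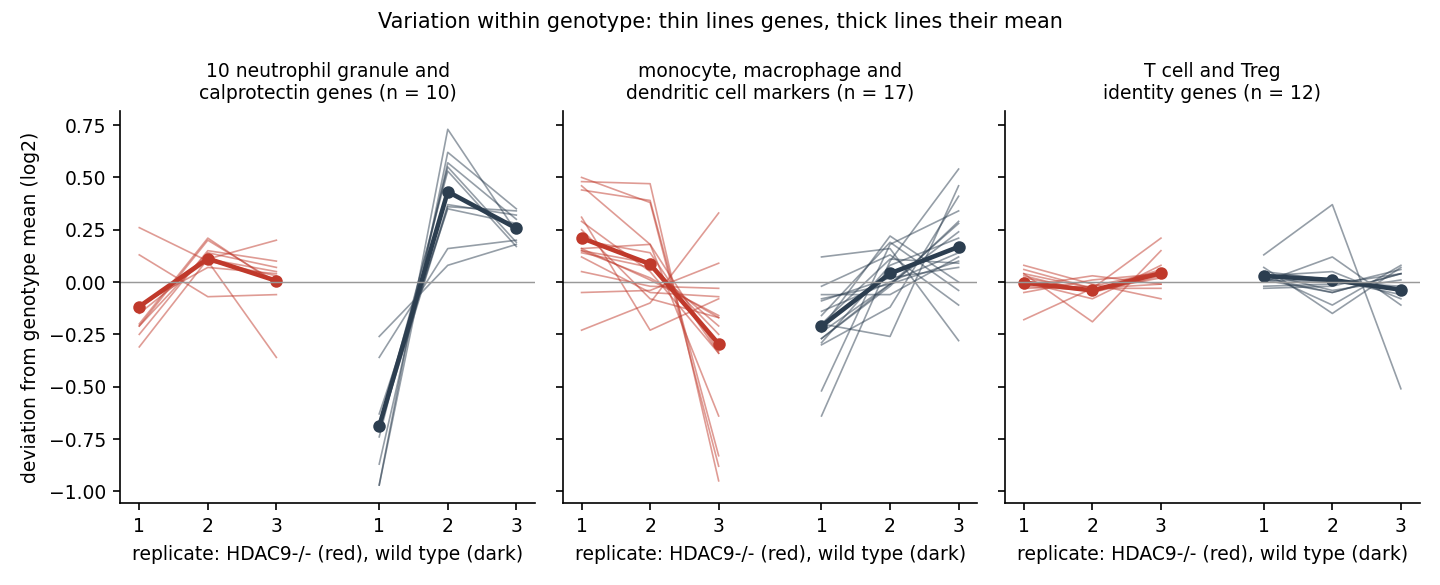
Deviation of each gene from the mean of its genotype (log2) on each array, for the 10 members, 17 monocyte, macrophage and dendritic cell markers and 12 T cell and Treg genes, with the list mean as a thick line. Replicates have no order and the lines only join the values of a gene. The members are low in wild type replicate 1 (mean -0.69), the markers in the middle panel are low in HDAC9-/- replicate 3 (mean -0.30), and the means of the T cell genes stay between -0.04 and 0.04.

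Other neutrophil genes of the lists mostly read higher in HDAC9-/- samples by smaller amounts, and none passed the test. Products of gelatinase granules and other neutrophil products read higher for 11 of 12 measured genes with a median of 0.38 (0.24 without wild type replicate 3), and 5 did not overlap between genotypes (11.0% of all probe sets in that direction). Cd177, a surface protein of neutrophils, read 5.90, 5.87 and 5.70 in HDAC9-/- and 4.36, 5.5 and 4.79 in wild type replicates 1 to 3, a difference of 0.93 (limma, adjusted p = 0.449). Lrg1, a glycoprotein of neutrophils, differed by 0.66 (adjusted p = 0.449) and Padi4, the enzyme that citrullinates histones in neutrophils, by 0.43 (adjusted p = 0.422). Neutrophil receptors read higher for 12 of 13 genes with a median of 0.24, and 5 did not overlap. Fpr2, the formyl peptide receptor that also binds the peptide made from Camp, read 6.03, 6.26 and 6.15 in HDAC9-/- and 4.90, 5.51 and 5.23 in wild type replicates 1 to 3, a difference of 0.93 (adjusted p = 0.311). Il1r2, the decoy receptor for interleukin-1 that Treg also carry, read 7.71, 7.85 and 7.91 in HDAC9-/- and 7.16, 7.25 and 7.32 in wild type samples, which differ by 0.58 (standard error 0.08, limma, adjusted p = 0.299). Wild type replicate 1 was the lowest wild type array for 6 of the 12 products and 8 of the 13 receptors, as for 25.4% of all probe sets. Cd177, Lrg1, Fpr2 and Il1r2 were among these, while Padi4 was lowest in wild type replicate 3.

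The products of the earliest granules were dim, and so were other neutrophil genes of the lists. All arrays reached the array-wide median for 3 of the 12 products of gelatinase granules and other neutrophil products, and for 2 of the 13 receptors. Lrg1 and Padi4 stayed under that median on every array, and Cd177 and Fpr2 on every wild type array. The azurophil granule genes Mpo, Elane, Prtn3, Ctsg and Ms4a3 stayed under the array-wide median on every array, between 3.60 and 4.95, and their median difference was 0.12 (0.02 to 0.20 without 1 array). Elane, which encodes neutrophil elastase, read 4.56 to 4.68 in HDAC9-/- and 4.36 to 4.48 in wild type samples (limma, adjusted p = 0.557). The defining neutrophil receptor gene Cxcr2 was also dim, at 4.87 to 5.03 in HDAC9-/- and 4.74 to 4.98 in wild type samples, while Csf3r, the receptor for granulocyte colony-stimulating factor, read 7.09 to 7.34 in HDAC9-/- and 6.71 to 7.22 in wild type samples. Ly6g had no probe set of its own. Subunits of the NADPH oxidase, which makes the oxidative burst of phagocytes, had a median difference of -0.04 over 5 genes (-0.13 to -0.01 without 1 array). All arrays reached the array-wide median for 3 of the 5, Cyba, Ncf4 and Rac2. Ncf4 read lower, at 9.74 to 9.91 in HDAC9-/- against 10.10 to 10.26 in wild type samples (difference -0.34, limma, adjusted p = 0.422). Rac2 differed by -0.12 (adjusted p = 0.609). Cybb, the only 1 of the 5 with a positive difference, differed by 0.19.

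Factors that direct granulocyte genes read slightly higher in HDAC9-/- samples. Over 6 measured factors the median difference was 0.16 (0.09 without HDAC9-/- replicate 1), all were positive and none passed. Without wild type replicate 1, 5 of the 6 were positive, and Klf5, which encodes a Krüppel-like factor, read -0.06 in place of 0.08. Cebpa, which encodes C/EBP-alpha, read 6.95, 6.76 and 6.57 in HDAC9-/- and 6.41, 6.40 and 6.39 in wild type replicates 1 to 3 (difference 0.36, limma adjusted p = 0.445), and Spi1, which encodes PU.1, differed by 0.40 (adjusted p = 0.608), or by 0.26 without wild type replicate 1 and likewise without HDAC9-/- replicate 1. Cebpe had no probe set of its own. Of the receptors and partners of the member proteins, 6 of 9 read higher and 3 lower with a median of 0.08, or 4 of 9 higher with a median of 0.00 without wild type replicate 1. Tlr4, a receptor for calprotectin, differed by 0.32 at a mean of 4.5 in HDAC9-/- and 4.18 in wild type samples (adjusted p = 0.543). The other Tlr4 probe set was dimmer and differed by 0.15, and its groups overlapped. Relatives of Ifitm6 had a median of 0.07 over 4 genes, with 0.36 for Ifitm2 and -0.08 for Ifitm1 (adjusted p = 0.597 and 0.841), or 0.21 for Ifitm2 without HDAC9-/- replicate 1 and 0.03 for Ifitm1 without HDAC9-/- replicate 3. Leaving out 1 array moved the median of these relatives between -0.05 and 0.27. Cytokines and chemokines that draw or raise neutrophils had a median of -0.08 over 11 genes (-0.16 to -0.02 without 1 array), of which 5 read higher and 6 lower. Cxcl2 differed by 0.41 (limma, adjusted p = 0.467) and was under the array-wide median on every wild type array. Ccl3 differed by -0.45 and Csf2 by -0.39 (adjusted p = 0.605 and 0.604).

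Markers of other cell types were set beside these values. The list mean of the value minus its mean over the 6 arrays ran from -0.15 to 0.35 in HDAC9-/- and from -0.35 to 0.03 in wild type samples for the monocyte, macrophage and dendritic cell list, whose median difference was 0.33 with 16 of 17 genes positive. Over the 10 members that score was 0.46, 0.69 and 0.58 in HDAC9-/- and -1.27, -0.15 and -0.32 in wild type replicates 1 to 3. The scores ran from -0.05 to 0.24 in HDAC9-/- and from -0.24 to 0.05 in wild type samples for CD8 T and natural killer cells. That list had a median difference of 0.26, with 8 of 10 genes positive. For B cells the scores ran from -0.29 to 0.22 in HDAC9-/- and from -0.08 to 0.10 in wild type samples. The T cell and Treg list ran from -0.04 to 0.05 in HDAC9-/- and from -0.04 to 0.02 in wild type samples. The B cell list had a median difference of 0.01, with 4 of 8 genes positive. Its gene Jchain read 11.58, 11.39 and 11.59 in HDAC9-/- and 11.99, 11.93 and 12.04 in wild type replicates 1 to 3. Jchain thus differed by -0.47 (limma, adjusted p = 0.337). Red cell and platelet markers had a median difference of -0.08 (0.02 without wild type replicate 3) and 8 of the 9 were dim, and markers of eosinophils, basophils and mast cells had 0.10. No gene of these lists passed, and the part of other cells in the member differences was not tested.

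**Figure D5:**
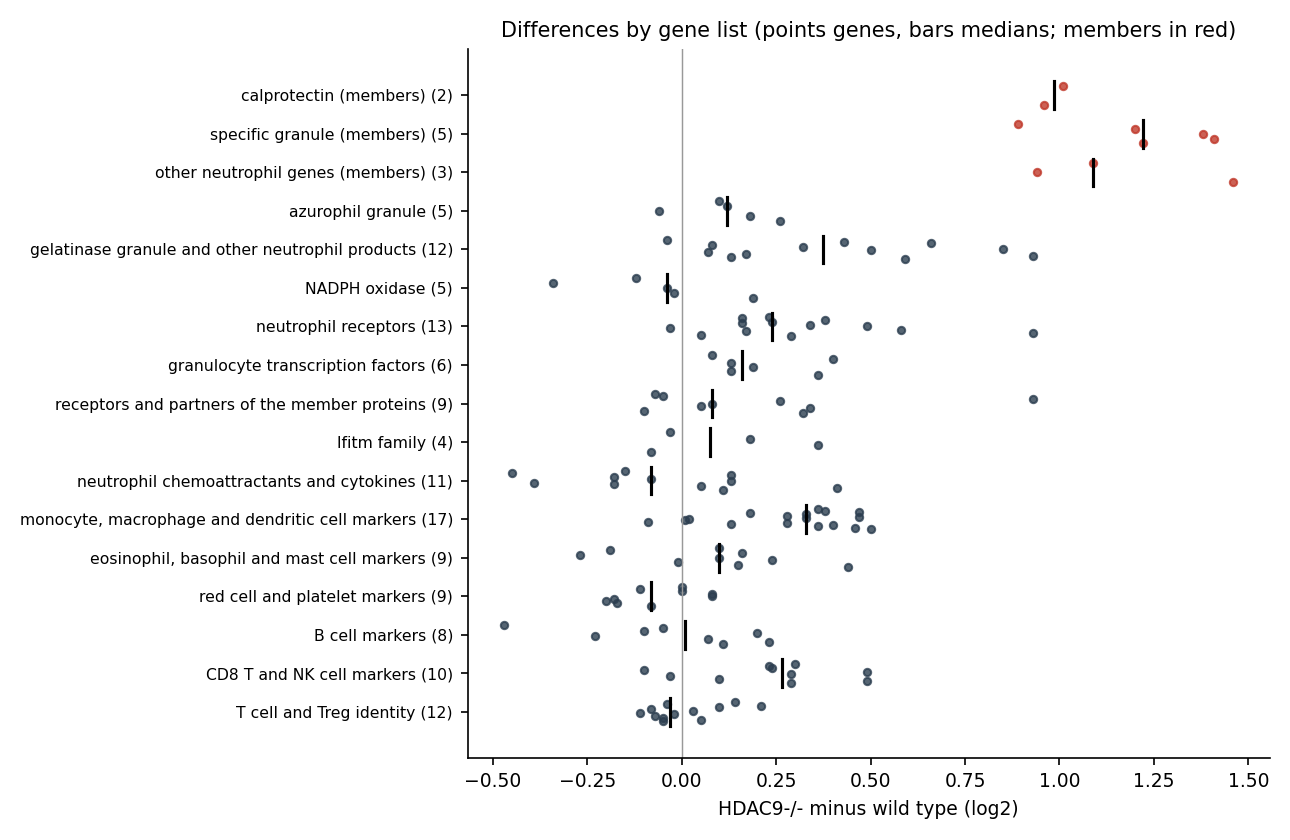
Differences HDAC9-/- minus wild type (log2) of the measured genes of each list, with the median as a bar and the number of genes in brackets. The members, which were chosen on this contrast, lie at 0.89 to 1.46, and the medians of the other lists lie between -0.08 and 0.38.

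Genes outside the set that varied most like it within genotype were taken from 1353 probe sets with 1 gene symbol, a mean at or above the median of all and an SD within genotype of at least 0.2. Likeness was measured as r between 6 deviations from the genotype means and the mean deviation of the members, as a description of these arrays. The 10 most alike were Rps6 (0.983), Slc15a2 (0.959), St6galnac6 (0.925), Plpp2 (0.923), Anxa1 (0.914), B3gntl1 (0.902), Dnmt3b (0.825), Ddx10 (0.799), Lmna (0.798) and Klf6 (0.789). The limit on the mean left out dim neutrophil genes named above, among them Fpr2 (0.936), Lrg1 (0.919) and Cd177 (0.832). Padi4, dim as well, was not alike (-0.193). For a member against the mean of the other 9 genes, the same measure ran from 0.45 for Hp and 0.792 for Wfdc21 to 0.998 for Ngp. Anxa1, which encodes annexin A1, a protein abundant in neutrophils, read 8.22, 8.47 and 8.33 in HDAC9-/- and 7.31, 7.89 and 8.11 in wild type samples. Its difference of 0.57 did not pass (limma, adjusted p = 0.539). Several of these differences rested on single arrays. Without wild type replicate 1 the difference was 0.34 for Anxa1, 0.10 for St6galnac6 (0.26 with all arrays) and -0.03 for Rps6 (0.14 with all arrays). Plpp2, B3gntl1 and Dnmt3b differed by -0.05, -0.06 and -0.08, values that turned to 0.08 and 0.06 for Plpp2 and B3gntl1 without wild type replicate 3 and to 0.09 for Dnmt3b without wild type replicate 2. Ddx10 and Klf6 differed by -0.44 and -0.48, and by -0.23 and -0.26 without wild type replicate 2, while Lmna differed by 0.54.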

How the data were processed

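Each probe set has 1 deposited value on the log2 scale for each array, which the authors computed by RMA, per the submitters' processing notes. No version or settings of RMA are given there. RMA pulls dim probe sets together, so their differences are understated. Values ran from 2.42 to 14.32. Of 22690 probe sets, 64 controls were left out. Probe sets were named from the platform annotation where it gives 1 symbol (20380), updated through the Entrez identifier for 20351. The table names no genome build; sequences and gene order come from RefSeq tables of GRCm38.p6.

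Differences are HDAC9-/- minus wild type, from a linear model of genotype on all 6 arrays (limma 3.58.1 under R 4.3.3, functions lmFit and eBayes) with Benjamini-Hochberg adjustment over 22626 probe sets and a threshold of 0.05. The fit was tested on simulated data. For list genes with several probe sets the one with the highest mean was used. Named genes are the members, the list genes with the smallest unadjusted p (cell type lists excepted) and the 10 most alike genes. Genes named beyond these (Hdac9, Foxp3, Cd3e, Ikzf2, Klf5, Lyz2, Csf1r, Flt3, Cd68, Cst3, Itgax, Jchain, Cybb, Cyba, Cxcr2, Csf3r, Mpo, Prtn3, Ctsg, Ms4a3) were chosen after their values were seen or as defining markers. Members and lists were chosen with earlier results of these data known. Since nothing says that samples came from separate mice, the spread behind the p-values is that of these samples and may be technical. Figures were drawn with matplotlib 3.10.9.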

Additional observations from a re-analysis of the deposited data

How the results depend on the processing

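The count of probe sets called over the array was 3 after another quantile normalization, after aligning array medians and after leaving out dim probe sets, 15 for eBayes with trend and robust options, 6 for array weights and 0 for the replicate block; leaving out 1 array gave 0 to 6. No member was called under any of these 12 alternatives; 9 of the 10 were tested when dim probe sets were left out. The median difference of the members was 1.11 after another quantile normalization, 1.12 after aligning medians and 0.77 to 1.37 without 1 array, the lowest being without wild type replicate 1. Each member was recomputed under 8 alternatives, and its difference ran from 0.62 to 1.77 over all 80 values. Without 1 array, groups that do not overlap fix a positive difference in advance. The arithmetic of 3 arrays likewise fixes a move below the SD of replicates, so nothing is read from either. After another quantile normalization and after aligning medians, the differences also stayed positive and moved by less than that SD. Groups did not overlap for 10 of the 10 under both scalings. Over all probe sets, same-numbered samples did not deviate together (correlations of 0.036, 0.099 and -0.249), so the replicate block, which left 0 calls, rests on a shared number only. The members did follow that number in both genotypes. Their mean deviations were -0.12, 0.11 and 0.01 in HDAC9-/- and -0.69, 0.43 and 0.26 in wild type replicates 1 to 3. With 3 arrays per genotype and no scanner files used here, signal over background is unknown.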

Other observations

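Slc15a2, a peptide transporter gene, stood out among the genes alike in order to the neutrophil genes by the size of its variation. Its probe set (1417600_at) read 7.16, 8.94 and 8.24 in HDAC9-/- and 4.32, 7.71 and 7.83 in wild type replicates 1 to 3. The lowest value was again that of wild type replicate 1, and the lowest HDAC9-/- value that of replicate 1. The SD within genotype was 1.54, against 0.63 for Camp, the most variable member, and the difference of 1.49 did not pass (limma, adjusted p = 0.663). It was 0.34 without wild type replicate 1. Its groups overlapped.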
